A study of Rattus norvegicus with 12 samples.

Results

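Myoglobin, the haemoglobin chains and the genes that sense or answer to oxygen were followed here as 9 genes of red gastrocnemius muscle: Mb, Hba-a2, Hbb-b1, Alas2, Vegfa, Vegfb, Hif1a, Epas1 and Egln1. They were picked by gene name, and each matched 1 of the 30560 rows of a table of read counts per gene. The 12 libraries came from 6 male wild-type Wistar Kyoto rats at 9 weeks of age, with 1 library of snap-frozen whole muscle, not exposed to enzymes, and 1 library of isolated mitochondria from each rat. The mitochondria had been pulled out of fresh tissue by immunoprecipitation and then exposed to RNase A and proteinase K, so that this group differs from whole muscle in the isolation as well as in the enzymes. Libraries were built from ribosomal RNA depleted total RNA, 50 ng for muscle and 10 ng for mitochondria. The study asked which RNAs of nuclear genes are found in muscle mitochondria.

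Myoglobin binds oxygen inside heart and oxidative muscle fibres, where it stores oxygen and eases its passage to mitochondria. Haemoglobin is built from alpha and beta globin chains in red cell precursors, whose young circulating descendants still carry globin mRNA, and it needs heme, whose synthesis starts in the mitochondrial matrix with an aminolevulinate synthase. When oxygen is ample, prolyl hydroxylases such as the product of Egln1 mark the HIF alpha subunits (Hif1a, Epas1) for destruction through the VHL ubiquitin ligase; when oxygen falls, the subunits persist and switch on target genes such as Vegfa, which makes capillaries grow.

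Whole muscle libraries held 24309444 to 32055355 counts and mitochondria libraries 720111 to 1785865. Levels are given as CPM, the counts of a gene scaled to the total counts of its library, with SD and n = 6 per group throughout. Genes of the mitochondrial genome took 26.4% to 35.9% of counts in muscle and 12.9% to 51.5% in mitochondria, so the mitochondria libraries were not uniformly richer in the transcripts that define the organelle. All 9 muscle fibre markers found in the table fell in mitochondria, from a summed 154978 to 222239 CPM to between 1579 and 3776 CPM. Markers of hepatocytes, cells that were not sampled, summed to 0.0823 to 0.481 CPM in muscle and to 70.6 to 153 CPM in mitochondria, where all 7 of those found had counts. The part of this broad gain of counts in the results that follow was not tested. In such bulk libraries, fewer cells of a type and less RNA per cell cannot be told apart.

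The promoters of the alpha and beta globin members are shown with those of related genes of the same family, beside those of Mb, the member that changed most, and Egln1, whose window lacks TATAAA. All 9 matched a RefSeq promoter window (build GRCr8, 250 bases before to 50 after the start), and the 100 bases before the start are printed 5′ to 3′ in the direction of the gene. Capitals mark the letters TATAAA, found near the start site of many strongly regulated genes. They also mark GCGTG, which with its variant ACGTG forms the core that HIF binds.
Mb: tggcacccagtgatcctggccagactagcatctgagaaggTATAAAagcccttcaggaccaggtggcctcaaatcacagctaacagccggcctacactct
Hba-a2: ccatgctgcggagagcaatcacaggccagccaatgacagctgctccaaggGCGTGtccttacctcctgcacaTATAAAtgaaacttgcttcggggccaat
Hba-a1: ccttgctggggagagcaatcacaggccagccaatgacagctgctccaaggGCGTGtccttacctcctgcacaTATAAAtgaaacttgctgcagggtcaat
Hba-a3: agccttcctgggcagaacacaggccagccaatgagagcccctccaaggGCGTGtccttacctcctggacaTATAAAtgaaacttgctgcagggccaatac
Hbb-b1: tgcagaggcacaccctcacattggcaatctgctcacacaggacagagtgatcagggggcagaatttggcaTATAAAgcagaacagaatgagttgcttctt
Hbb-bs: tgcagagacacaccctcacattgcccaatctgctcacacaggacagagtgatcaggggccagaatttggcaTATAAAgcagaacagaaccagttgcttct
Egln1: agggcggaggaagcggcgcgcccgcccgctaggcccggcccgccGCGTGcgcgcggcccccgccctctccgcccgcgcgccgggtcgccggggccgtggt
These stretches lie on the minus strand at chr7:110647743-110647842, chr10:15829139-15829238, chr10:15842581-15842680, chr10:15816944-15817043, chr1:167643521-167643620, chr1:167631631-167631730 and chr19:69804682-69804781. Over the 250 bases before the start, 96.4% of aligned positions were identical between Hba-a2 and Hba-a1, 65.5% between Hba-a2 and Hba-a3, and 93.6% between Hbb-b1 and Hbb-bs, while Hba-a2 and Hbb-b1 shared 49.5%. RefSeq gives the name Hba-a2 as a synonym of Hba-a1 and the name Hba-a1 as a synonym of Hba-a2, so the count for Hba-a2 may hold reads of either copy. No row of counts was named Hba-a1 or Hbb, so neither was analysed here.

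Of the 9 windows of 300 bases, 4 held ACGTG or GCGTG on either strand (Hba-a2, Vegfb, Hif1a and Egln1), beside 42.9% of all 27457 promoters in the RefSeq table. The palindrome CACGTG, as in Hif1a, counts as ACGTG on both strands. TATAAA stood in 3 of the 9 (Mb, Hba-a2 and Hbb-b1) and in 14.3% of all promoters. AGATAA or TGATAA, core letters for GATA factors, stood in 3 of the 9 (Alas2, Hba-a2 and Vegfa) and in 18.6% of all. These matches are descriptions of letters and were not related to binding.

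In whole muscle the genes for oxygen storage, vessel growth and oxygen sensing were well detected, and 8 of the 9 were lower in the mitochondria libraries by mean CPM. Mb dropped furthest, by 45.3-fold. Vegfa was 7.63-fold lower, Hbb-b1 5.86-fold, Egln1 5.85-fold and Epas1 5.80-fold, whereas Vegfb (2.52-fold), Hba-a2 (2.04-fold) and Hif1a (1.44-fold) moved less. Alas2 alone of the 9 was higher by CPM, by 2.95-fold. In 6 genes the muscle libraries all lay above the mitochondria libraries, in Alas2 all lay below, and in Hba-a2 and Hif1a the groups overlapped. Among all genes tested, 6.77% were lower and 79.5% higher without overlap.

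**Figure D1:**
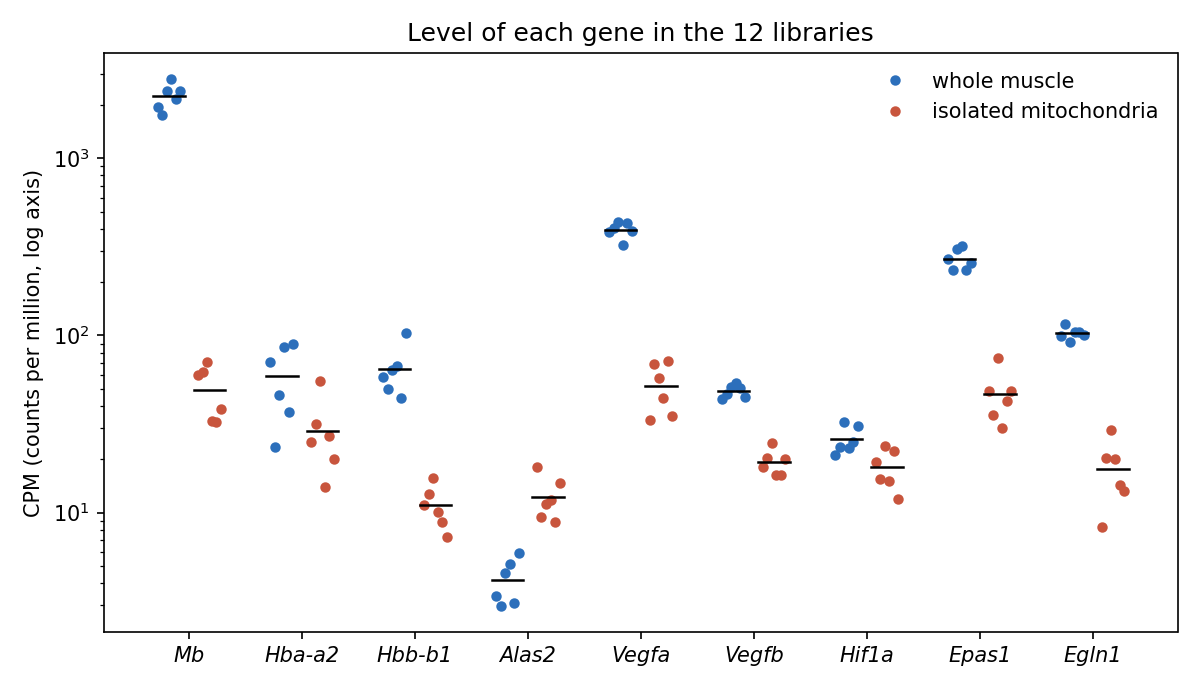
CPM on a log axis of the 9 genes in 6 whole muscle libraries (blue) and 6 libraries of isolated mitochondria (red), 1 point per library, with the group mean as a black line. Mb lies near 2239 CPM in muscle and 49.5 CPM in mitochondria, the groups overlap in Hba-a2 and Hif1a, and Alas2 is higher in every mitochondria library.

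TMM scaling sets each library's size from a trimmed mean of fold changes in which genes with more counts weigh more. Differences were tested with the quasi-likelihood F-test of edgeR on 24679 genes under TMM, with Benjamini-Hochberg adjustment at 0.05. It called all 9 genes lower in mitochondria and none higher (also none at an unadjusted p under 0.05, and none with DESeq2, which called 8 lower), beside 30.3% of all genes tested called lower and 63.0% called higher. The median log2 fold change of the 9 was -4.61, and that of all genes tested was 2.51, so TMM did not centre all genes at no change. Scaling by total counts, as in CPM, moves the median of all genes by 2.10 on the log2 scale, to 4.61. Then 8 of the 9 were lower and Alas2 was higher, with a median of -2.54, beside 9.03% of all genes lower and 84.3% higher. Relative to counts of the mitochondrial genome, 6 were lower and Alas2 was higher, Hba-a2 and Hif1a not passing, with a median of -2.13 against 4.95 over all nuclear genes tested (4.34% lower, 80.9% higher). A fold change thus carries the scaling it was made with, and is given below under TMM and under total counts.

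**Figure D2:**
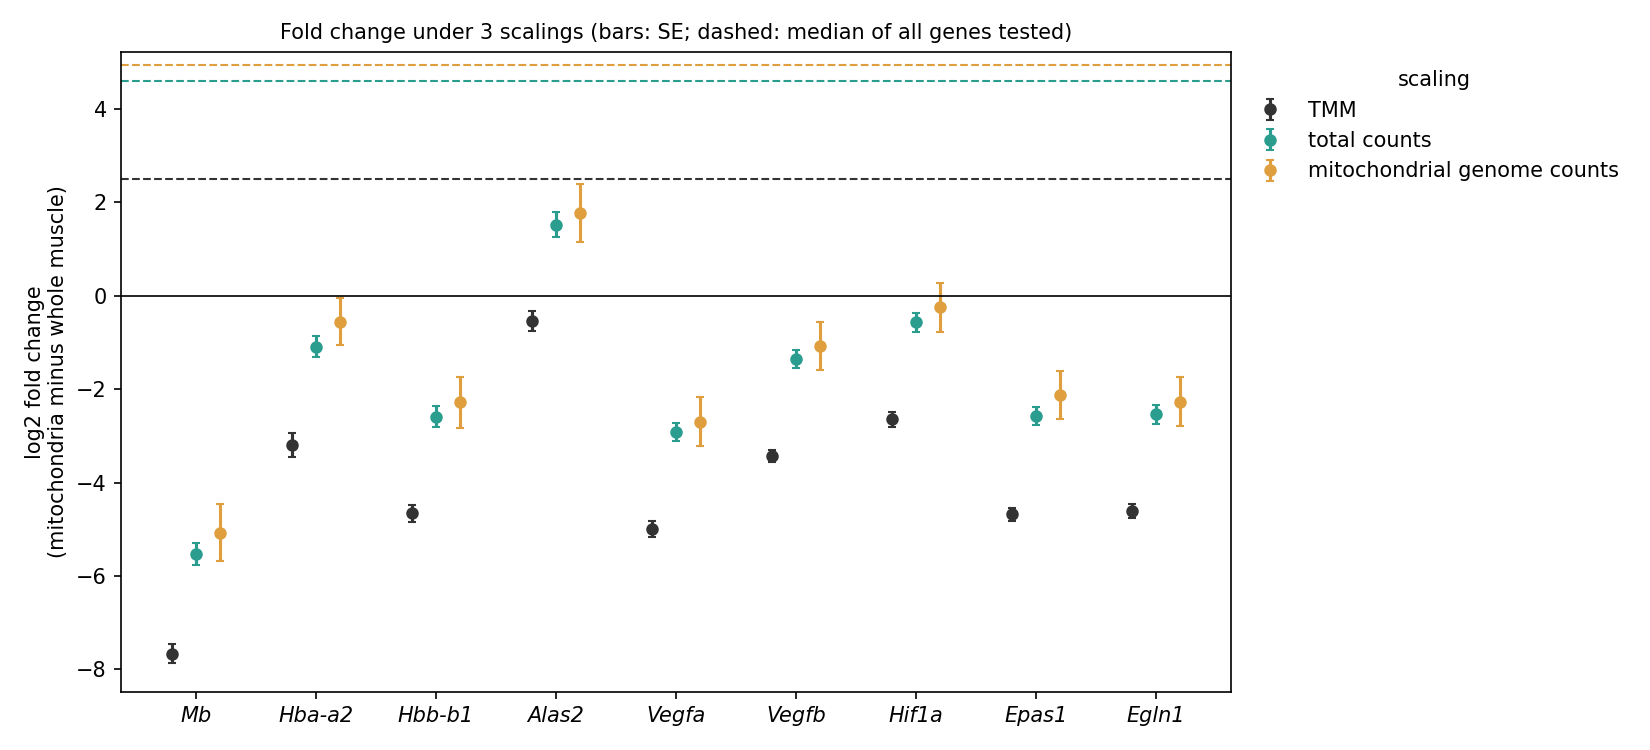
Log2 fold change (mitochondria minus whole muscle) of the 9 genes with SE bars under TMM, total counts and mitochondrial genome counts as library size, with the median of all genes tested dashed in the same colour. All 9 points lie below the dashed line of their scaling, and only Alas2 changes sign, from -0.54 under TMM to 1.53 and 1.77.

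Mb, the oxygen store of the fibre, had 1761 CPM in its lowest muscle library, a median of 2268 and 2792 in its highest, against 32.5, 49.1 and 70.9 in mitochondria. Every muscle library exceeded every mitochondria library by a wide margin, and the fold within an animal ran from 28.4 to 84.5. The log2 fold change was -7.66 ± 0.20 under TMM (SE, edgeR adjusted p = 8.82e-25) and -5.53 ± 0.24 with total counts.

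Hba-a2, an alpha chain of haemoglobin, had 23.4 CPM in its lowest muscle library, a median of 58.3 and a highest of 89.9. In mitochondria it had 14, 26.1 and 55.2. The ranges overlap, and in animals 2 and 3 the mitochondria library was the higher of the pair. The log2 fold change was -3.19 ± 0.25 under TMM (SE, edgeR adjusted p = 2.82e-13), -1.08 ± 0.23 with total counts (edgeR adjusted p = 1.52e-05) and -0.55 ± 0.51 relative to mitochondrial genome counts, where it did not pass (edgeR adjusted p = 0.298).

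Hbb-b1, a beta chain, had 44.6 CPM, 60.8 and 103 as lowest, median and highest in muscle and 7.32, 10.6 and 15.8 in mitochondria. No mitochondria library reached the lowest muscle library. The log2 fold change was -4.66 ± 0.19 under TMM (SE, edgeR adjusted p = 5.01e-20) and -2.59 ± 0.22 with total counts. The whole mitochondria group rests on 83 counts of Hbb-b1, with 8 to 19 per library.

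Alas2 encodes the erythroid form of aminolevulinate synthase, which starts heme synthesis in red cell precursors. It had 2.99, 3.97 and 5.92 CPM as lowest, median and highest in muscle and 8.81, 11.5 and 18.1 in mitochondria, so that the mitochondria library was the higher in all 6 animals. Its direction turns with the scaling: -0.54 ± 0.22 under TMM (SE, edgeR adjusted p = 0.0229), -0.17 with RLE size factors (edgeR adjusted p = 0.457), 1.53 ± 0.27 with total counts (edgeR adjusted p = 4.03e-07) and 1.77 ± 0.63 with those of the mitochondrial genome (edgeR adjusted p = 0.00601). Under each of these scalings it stayed below the median of all genes tested. The TMM call for Alas2 was also lost without muscle replicate 3, 4 or 6 or mitochondria replicate 2 or 3, with edgeR adjusted p from 0.0520 to 0.177.

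Vegfa, the main growth factor for capillaries, had 325, 396 and 436 CPM as lowest, median and highest in muscle and 33.3, 50.8 and 71.9 in mitochondria. The groups lay far apart, with a log2 fold change of -5.00 ± 0.18 under TMM (SE, edgeR adjusted p = 1.09e-21) and -2.92 ± 0.19 with total counts. Vegfb, a related ligand that binds the receptor Flt1, had 43.8, 48.7 and 54.2 CPM in muscle and 16.2, 19 and 24.8 in mitochondria. The Vegfb groups did not overlap either, and its log2 fold change was -3.43 ± 0.12 under TMM (SE, edgeR adjusted p = 2.46e-21) and -1.35 ± 0.18 with total counts.

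Epas1 encodes HIF-2 alpha, a HIF subunit prominent in endothelium. It had 234, 264 and 319 CPM as lowest, median and highest in muscle and 30.2, 45.6 and 74.3 in mitochondria, without overlap. Egln1, the prolyl hydroxylase that acts as oxygen sensor, had 91.6, 102 and 116 CPM in muscle and 8.33, 17.2 and 29.3 in mitochondria, also without overlap. The log2 fold changes were -4.68 ± 0.14 for Epas1 (SE, edgeR adjusted p = 2.32e-23) and -4.61 ± 0.16 for Egln1 (SE, edgeR adjusted p = 4.62e-22) under TMM, and -2.57 and -2.54 with total counts.

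Hif1a, which encodes HIF-1 alpha, had 21.1, 24.2 and 32.5 CPM as lowest, median and highest in muscle and 12.0, 17.5 and 23.6 in mitochondria. The ranges overlap, although the muscle library was the higher in all 6 animals, by 1.09- to 2.59-fold. The log2 fold change was -2.65 ± 0.16 under TMM (SE, edgeR adjusted p = 3.24e-16) and -0.56 ± 0.20 with total counts (edgeR adjusted p = 0.00689). Relative to mitochondrial genome counts it was -0.25 ± 0.53 and did not pass (edgeR adjusted p = 0.662).

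A ratio of 2 genes inside a library does not depend on the scaling or on gene length when groups are compared, and the relative amounts of the members differed between muscle and mitochondria in all 6 ratios examined. Mb was counted 35.7 times as often as Hbb-b1 in muscle and 4.29 times as often in mitochondria (geometric means). Alas2 was counted at 0.0654 of Hbb-b1 in muscle and at 1.12 in mitochondria, the largest shift of the 6, at 17.1-fold. Hba-a2 went from 0.854 to 2.42 per count of Hbb-b1, so that this alpha row and this beta row did not move in step. Vegfa went from 8.12 to 2.57 per count of Vegfb. Among the HIF alpha subunits and their hydroxylase, Hif1a went from 0.0956 to 0.397 per count of Epas1, and Egln1 from 3.99 to 0.937 per count of Hif1a.

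On the log2 scale, with 0.5 added to each count, the differences were -3.06 for Mb/Hbb-b1, 1.5 for Hba-a2/Hbb-b1, 4.10 for Alas2/Hbb-b1, -1.66 for Vegfa/Vegfb, 2.05 for Hif1a/Epas1 and -2.09 for Egln1/Hif1a. The SDs of the log2 ratios lay between 0.17 and 0.53 in muscle and between 0.28 and 0.65 in mitochondria. The groups did not overlap in any of the 6 ratios, and all 6 animals moved the same way in each. By CPM, 6.77% of all single genes tested were lower and 79.5% higher without overlap. How many other pairs of genes separate in this way was not computed, so the 6 are not shown to be particular. The two-sided exact permutation test gave p = 0.00216 for each, the smallest it can give with 6 against 6, and 0.00216 after Benjamini-Hochberg adjustment over the 6 ratios. In each of the 5 pairs other than Hba-a2/Hbb-b1 the 2 genes were closer to equal counts in mitochondria than in muscle. In mitochondria, Hbb-b1 and Alas2 lay at median percentiles of 42.2 and 45.5 among nuclear genes. The other members lay between 55.2 (Hif1a) and 90.7 (Vegfa). Of nuclear genes without a muscle count, a median of 78.9% lay below Hbb-b1 there and 80.9% below Alas2. The part of such background levels in the ratios was not tested.

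**Figure D3:**
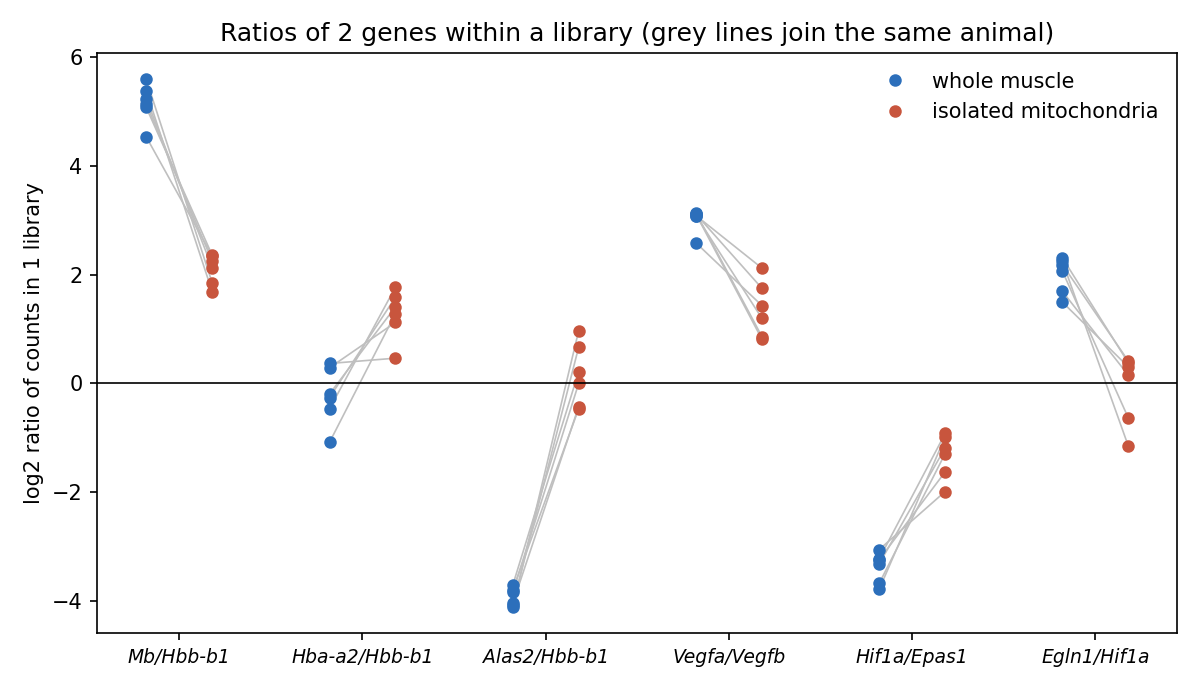
Log2 ratio of the counts of 2 genes within a library for 6 pairs, with whole muscle in blue, isolated mitochondria in red and a grey line for each of the 6 animals. All lines of a pair run in the same direction, and Alas2/Hbb-b1 shifts most, from a mean of -3.94 to 0.16.

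Levels within the mitochondria group were limited by few counts. Totals over the 6 mitochondria libraries ran from 83 for Hbb-b1 and 93 for Alas2 to 344 for Epas1, 363 for Mb and 415 for Vegfa, while the smallest total in muscle was 706, for Alas2. With levels taken relative to nuclear counts, the variance among mitochondria libraries was 0.441 times that of counting alone for Hbb-b1 and 0.494 times for Vegfb, and between 1.34 and 3.0 times for Hif1a, Alas2, Mb, Epas1, Egln1 and Hba-a2. Vegfa stood apart at 7.58 times, with 41.8 CPM of nuclear counts in mitochondria replicate 1 and 122 in replicate 5. In muscle the same measure ran from 13.5 for Alas2 to 2745 for Mb, so that the spread there was far above counting error.

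Among the 6 animals, the transcripts of haemoglobin chains and of Alas2 had their highest muscle level in the same rat. Hbb-b1 and Alas2 were both highest in animal 6, at 103 and 5.92 CPM, where Hba-a2 was highest too, at 89.9 CPM. Hba-a2 varied most, with a highest library 3.84 times its lowest and a coefficient of variation of 46.6%, against 32.2% for Hbb-b1, 28.9% for Alas2 and 7.92% to 17.8% for Egln1, Vegfb, Vegfa, Epas1, Mb and Hif1a. Over 7 pairs of members, Pearson's r passed for Hbb-b1 with Alas2 only (r = 0.918, exact permutation p = 0.00278, 0.0194 after Benjamini-Hochberg adjustment over the 7, n = 6). Its Spearman's rho was 0.943 (exact permutation p = 0.0167, adjusted 0.0583), and r was 0.960 without the 2 libraries farthest from the median of Hbb-b1, replicates 5 and 6.

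For Hba-a2, r was 0.748 with Hbb-b1 (rho = 0.886) and 0.777 with Alas2 (rho = 0.943), which did not pass (exact permutation p = 0.0722 and 0.0847, adjusted 0.198 for both; for rho, p = 0.0333 and 0.0167, adjusted 0.0778 and 0.0583). Without the 2 farthest libraries these r were 0.727 and 0.540. Mb with Hba-a2 had r = 0.697 (rho = 0.600, exact permutation p = 0.131 and 0.242, adjusted 0.228 and 0.423), which dropped to 0.026 without animals 2 and 4 and so rests on them. Vegfa with Vegfb (r = -0.204, rho = 0.143), Hif1a with Epas1 (r = 0.181, rho = -0.143) and Hif1a with Egln1 (r = -0.591, rho = -0.371) did not pass either, with exact permutation p of 0.738, 0.694 and 0.232 for r (adjusted 0.738, 0.738 and 0.325) and 0.803, 0.803 and 0.497 for rho (adjusted 0.803, 0.803 and 0.696). Leaving out the 2 farthest libraries turned the sign of r in each of these 3 pairs, to 0.996, -0.457 and 0.425. No p was taken over the 4 libraries that remain.

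**Figure D4:**
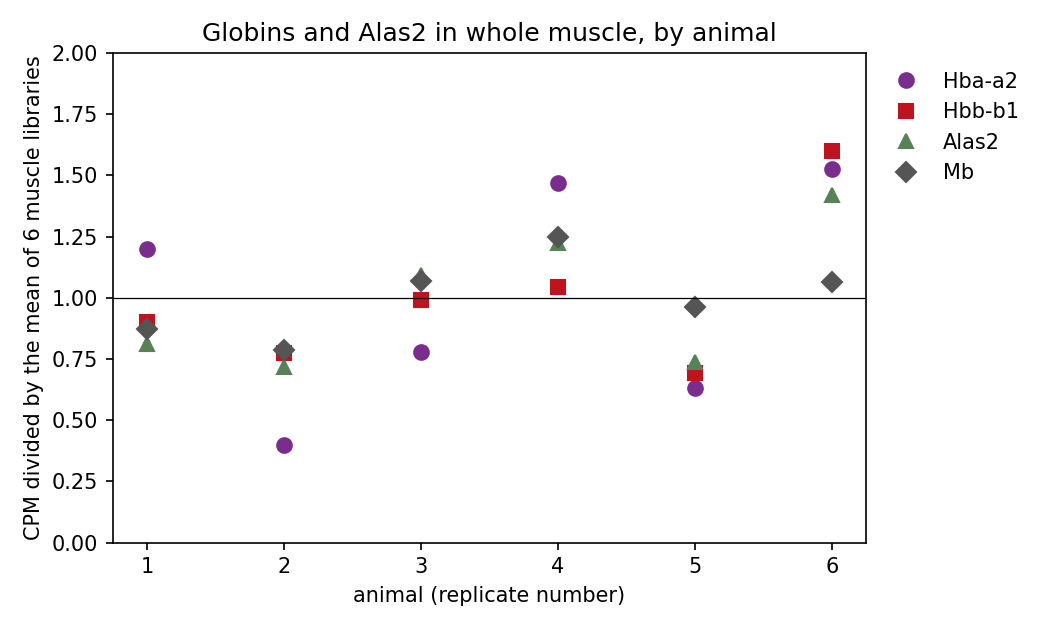
CPM of Hba-a2, Hbb-b1, Alas2 and Mb in whole muscle of each animal, divided by the gene's mean over the 6 muscle libraries. Hba-a2, Hbb-b1 and Alas2 are all highest in animal 6 and all below their mean in animals 2 and 5.

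The genes whose muscle levels followed a member most closely were taken from 6426 named nuclear genes with a mean of at least 10 CPM in muscle. For Mb these were Gas6 (r = 0.990), Tsg101, Smap2, Slc12a4 and, at the lower end, Tbc1d20 (r = 0.970). For Hba-a2 they were Psma1 (r = 0.995), Lum, Cavin3, Slco2b1 and Ndufs4 (r = 0.980), and for Vegfa Bcs1l (r = 0.975), Usp31, AABR07034438.1, Cep85 and Ascc1 (r = 0.954). Each r is over 6 libraries and is among the highest of all genes compared, so it describes these animals and carries no test.

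Among 12 globin genes found in the table, 11 were tested, of which 4 were lower (Mb, Hba-a2, Hbb-b1 and Cygb) and 7 higher in mitochondria under TMM. Of all genes, 30.3% were lower and 63.0% higher, so the count of higher globins lies near the background. Their median was 4.58 on the log2 scale, also with the 5 tested genes without a muscle count at their bound, beside 2.51 over all genes. With total counts 3 were lower and 7 higher. Cygb, cytoglobin, named after its values were seen, had 16.3 ± 3.55 CPM in muscle and 13.5 ± 5.65 in mitochondria. Hbg1, a globin of early life, had no count in muscle and 44 in mitochondria, at least 319-fold higher by CPM (floor: 3 counts in all muscle libraries together). The other genes without a muscle count, Hbz, Hbq1b, Hbe1, Hbe2 and Hbb-bs, named after their values were seen, had 24 to 43 counts in mitochondria. Hbb-bs, whose promoter is close to that of Hbb-b1, was not tested. Hba-a3 had 76 counts in muscle, against 9839 for Hba-a2.

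Heme synthesis and turnover held 17 genes, all tested, with 13 lower and 1 higher under TMM (median -1.07) but 3 lower and 12 higher with total counts (median 1.03) and 1 lower and 11 higher relative to mitochondrial genome counts (median 1.39). Over all genes the shares lower and higher were 30.3% and 63.0% (median 2.51), 9.03% and 84.3% (4.61), and 4.34% and 80.9% (4.95). The median of the list thus changed sign, while that of all genes was positive under each scaling and only moved further up. Alas1, the aminolevulinate synthase of other tissues, went from 122 ± 15.5 CPM in muscle to 34.6 ± 7.91 in mitochondria and was lower under each of these scalings. Its erythroid counterpart Alas2 thus went the other way by CPM. Fech, which inserts the iron, went from 36.5 ± 2.37 to 26.7 ± 7.42 CPM and was not called against mitochondrial genome counts (log2 -0.22, edgeR adjusted p = 0.685). Slc25a38, the mitochondrial carrier that supplies glycine, was the gene that rose under TMM, from 9.18 ± 0.92 to 54.6 ± 12.8 CPM. Its log2 change was 0.44 ± 0.11 (SE; adjusted p = 0.000703 in edgeR).

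Of 15 markers of red cell precursors, 3 were lower and 12 higher in mitochondria under each of the 3 scalings, and their TMM median was 4.68 beside 2.51 over all genes. The shares of all genes called higher were 63.0% under TMM, 84.3% with total counts and 80.9% against mitochondrial genome counts, so the list's count lies near the background in the latter pair. The 3 lower genes were Sptb (463 ± 75.1 to 120 ± 35.7 CPM), Ank1 (367 ± 53.2 to 117 ± 28.2 CPM) and Tfrc, the transferrin receptor (312 ± 59.5 to 28.7 ± 5.73 CPM), and all 3 are also expressed outside red cells. The other 12 had means between 0.00555 and 1.71 CPM in muscle, and their sum was 1.95 to 4.03 CPM there and 240 to 447 CPM in mitochondria. None of the 15 was at 0 over the whole of either group, but Gata1 and Rhag had 1 count each and Ermap 2 in all muscle libraries together. Ermap rose to 220 counts, which makes its CPM 2392 times that of muscle (exact 95% limits 654 and 19877, from counting error alone). Slc4a1, the anion exchanger of red cells, named with Gata1 and Rhag after their values were seen, had 0.939 to 2.33 CPM in muscle and was highest in animal 6, as Hbb-b1 and Alas2 were. The part of red cell content in the globin levels was not tested.

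Of 17 rows tested for HIF factors and their regulators, 14 were lower and 2 higher under TMM (median -2.17), 6 lower and 7 higher with total counts (median -0.07), and 3 lower and 7 higher relative to mitochondrial genome counts (median 0.27). Over all genes tested, the medians were 2.51, 4.61 and 4.95, with 30.3%, 9.03% and 4.34% lower and 63.0%, 84.3% and 80.9% higher. Epas1 and Egln1, which had the highest CPM of the list in muscle (not per length), were among the 3 lower under every one of these scalings. The third was Elob, a subunit of the VHL ligase (49.6 ± 5.22 to 11.5 ± 5.58 CPM), which was named after its values were seen. Of the other HIF prolyl hydroxylases, Egln2 changed by -2.25 and Egln3 by -3.46 on the log2 scale under TMM, beside -4.61 for Egln1. Arnt2 rose most, from 11 counts in muscle to 163 in mitochondria (0.0621 ± 0.0746 to 22.7 ± 9.17 CPM), and Hif3a was the other gene that rose under TMM (0.130 ± 0.0933 to 39.3 ± 12.4 CPM). Arnt, the common partner of the HIF alpha subunits, had 28.0 ± 2.24 CPM in muscle and 44.8 ± 14.2 in mitochondria, lower under TMM and higher with total counts. Egln2, Egln3, Hif3a and Arnt were also named after their values were seen.

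Of 27 HIF target genes tested, 17 were lower and 8 higher under TMM (median -1.23), 8 lower and 17 higher with total counts (median 0.88), and 4 lower and 15 higher relative to mitochondrial genome counts (median 1.38). Of all genes, 30.3%, 9.03% and 4.34% were lower and 63.0%, 84.3% and 80.9% higher under these scalings, with medians of 2.51, 4.61 and 4.95, so the counts and the background swing the same way. The 4 were Ldha, Vegfa, Bnip3 and Bhlhe40, of which the last pair was named after the values were seen. Ldha, the lactate dehydrogenase of glycolytic fibres, fell most, from 1023 ± 289 to 37.2 ± 6.76 CPM, or -6.89 ± 0.20 in log2 under TMM (SE; adjusted p = 1.03e-23 in edgeR). Epo, the hormone that drives red cell formation, had no count in muscle and 99 in mitochondria, at least 718-fold higher by CPM with the same floor. Hepatocyte markers without a muscle count had bounds on both sides of this, at 1174-fold for Fgb, 587-fold for Serpina1 and 457-fold for Apoa2.

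Of 10 ligands, receptors and coreceptors of the VEGF family, 6 were lower and 3 higher under TMM (median -1.48), and 3 lower and 5 higher with total counts (median 0.63). The background was 30.3% lower and 63.0% higher under TMM (median 2.51), and 9.03% lower and 84.3% higher with total counts (median 4.61). The ligands Vegfa and Vegfb were lower under all 3 scalings, whereas Pgf rose from 0.889 ± 0.429 to 15.2 ± 4.98 CPM and Vegfd from 0.449 ± 0.198 to 7.79 ± 3.64 CPM. Of the receptors, Flt1 had 84.3 ± 14.3 and 77.8 ± 24.3 CPM and Kdr 89.9 ± 24.6 and 84.7 ± 19.2 CPM, both lower under TMM and neither called with total counts, and Flt4 rose from 10.5 ± 1.53 to 72.5 ± 20.2 CPM. The coreceptor Nrp1 went from 124 ± 16.2 to 56.8 ± 11.5 CPM and was not called against mitochondrial genome counts (log2 -0.79, edgeR adjusted p = 0.127). Vegfd, Flt1, Kdr and Flt4 were named after their values were seen.

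**Figure D5:**
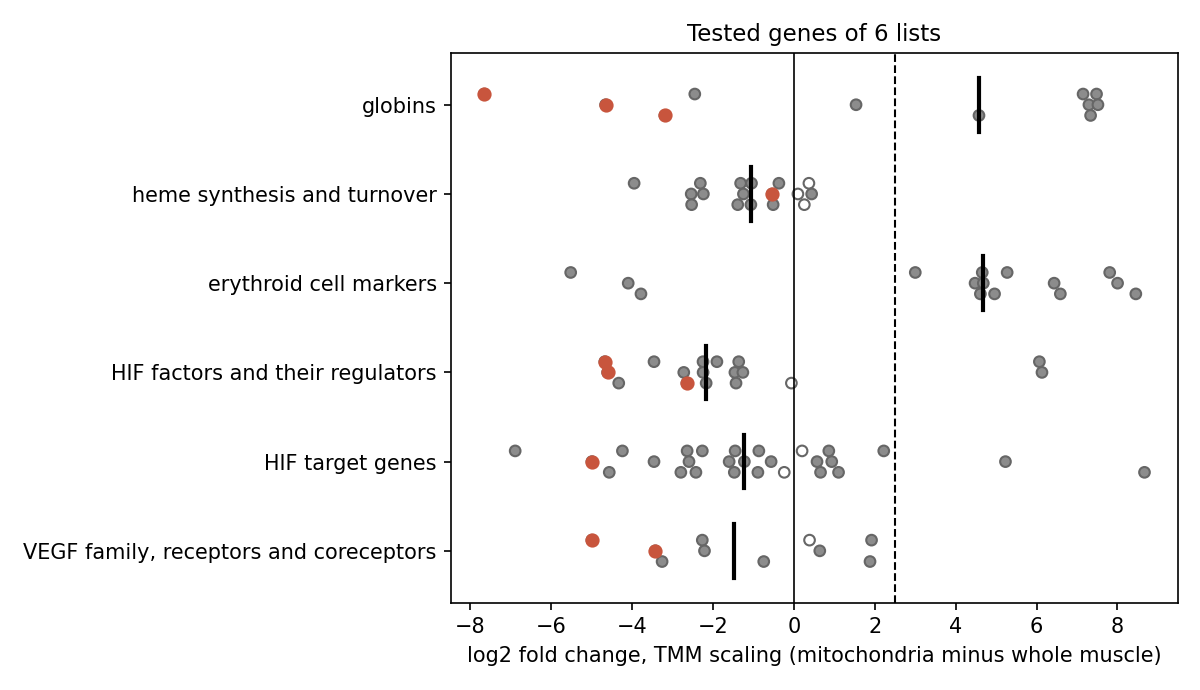
Log2 fold change under TMM (mitochondria minus whole muscle) of the tested genes of 6 lists, with the 9 members in red, other genes that passed in grey, those that did not pass open, the median of each list as a black bar and the median of all genes tested (2.51) dashed. The members lie between -7.66 (Mb) and -0.54 (Alas2), all left of the dashed line, and Vegfa stands in 2 lists.

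Markers of other cell types are given for comparison, although their CPM does not measure cell content here, since those of hepatocytes rose too. The 9 endothelial markers found summed to 443 to 662 CPM in muscle and 323 to 609 CPM in mitochondria, so the groups overlapped, and all 9 were lower under TMM but 3 lower and 2 higher with total counts. Smooth muscle and pericyte markers summed to 474 to 641 CPM and 314 to 553 CPM (7 lower and 1 higher of 8 under TMM, 3 lower and 2 higher with total counts), and macrophage markers to 46.7 to 86.9 CPM and 208 to 379 CPM (3 lower and 2 higher of 8 under TMM, 0 lower and 8 higher with total counts). Of all genes tested, 30.3% were lower and 63.0% higher under TMM, and 9.03% lower and 84.3% higher with total counts. The macrophage count with total counts thus lies near the background. No marker of these 3 lists was at 0 in either group. Their part in the member levels was not tested.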

How the data were processed

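RNA sequencing libraries of whole red gastrocnemius and of its isolated mitochondria were compared, 6 of each from the same 6 rats. The authors deposited raw read counts per gene for 30560 genes, 24042 of them named, with 1 column per library. Per the submitters' processing notes, FastQC 0.74, cutadapt 4.6, STAR 2.7.11a, HTSeq and the build mRatBN7.2 were used. Strandedness, the handling of multi-mapped reads and the version of the annotation were not found in these sources, so reads of near-identical or antisense genes may be exchanged. No coordinates of that build were used.

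All genes were fitted with edgeR 4.0.16 (R 4.3.3; glmQLFit, glmQLFTest, TMM, no covariate besides group; filterByExpr, min.count 10) and adjusted by Benjamini-Hochberg over all 24679 genes tested. SE is the absolute log2 fold change over the square root of F. Within-library ratios and correlations were tested by exact permutation (Python 3.11.15, numpy 2.4.6), with ranks from SciPy 1.17.1. The edgeR code was tested on simulated data in which most genes did not differ between groups. That is unlike these data, so the simulation says nothing on how TMM handles a shift of most genes. Ratios added 0.5 to each count. The 37 genes named Mt- or AY172581 were taken as the mitochondrial genome. Counting intervals and floors cover counting error only.

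The members, 6 gene lists and 6 marker lists were chosen with earlier results of these data known. Besides the members, the genes named are the 2 with the highest mean CPM of each list in muscle, those with the largest rise and fall that passed, and the 5 most like Mb, Hba-a2 and Vegfa by r over the muscle libraries. Any other gene was named after its values were seen. Each number marks 1 animal in both groups, since library names carry the same animal number. Deviations from the group means correlated between -0.008 and 0.0201 within animals over all genes tested. Alternatives were RLE factors, total counts, nuclear genes alone, mitochondrial genome counts as library size, no filter, DESeq2 1.42.0, thinning, the animal as a block and each library left out. The libraries held 24309444 to 32055355 counts in muscle and 720111 to 1785865 in mitochondria.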

Additional observations from a re-analysis of the deposited data

Results flagged for a closer look

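Among the levels of the 9 members and their 6 within-library ratios, 1 value stood apart from its group. The log2 ratio of Vegfa to Vegfb in muscle replicate 4 was 2.58, while the other 5 muscle libraries lay between 3.09 and 3.14, and its gap to the nearest of them took 0.910 of the whole range, above the 95% critical value of 0.625 for 6 samples. In that library Vegfa was at its lowest in muscle (325 CPM) and Vegfb at its highest (54.2 CPM). Chance puts about 1 in 20 groups past this value. Over 9 members and 6 ratios, 1 such value is about what chance gives. Every muscle library, this one included, had a higher ratio than every mitochondria library.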

How the results depend on the processing

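Of the 9 members, 6 (Mb, Hbb-b1, Vegfa, Vegfb, Epas1 and Egln1) kept their direction and call under every alternative run. Alas2 turned to 1.53 with total counts and 1.77 with mitochondrial genome counts as library size, giving 1 member higher under each; it lost its call with RLE factors and DESeq2 (both -0.17) and in 5 of the 12 fits that left out 1 library. Hba-a2 and Hif1a lost theirs with mitochondrial genome counts only. Leaving out 1 library gave 8 to 9 members lower and 0 higher, 11478 to 16363 genes higher and 6925 to 7514 lower. The number of genes that passed the filter differed between these fits. Without a muscle library 20003 to 20007 genes were tested and 11478 to 11556 were higher. Without a mitochondria library 25287 to 25696 were tested and 15959 to 16363 were higher. Genes lower numbered 2228 with total counts, 1070 with mitochondrial genome counts and 4156 after thinning to 573903 nuclear counts per library, which left 8751 higher; fewer counts leave fewer genes to test, and Alas2 was then not tested. With the animal as a block, 15511 genes were higher and 7427 lower, and all 9 members stayed lower, so the block changed no member's call. The paired sign-flip test of the ratios gave its smallest possible exact p of 0.03125 for each. It had to, since the groups did not overlap in any ratio, so it carries no information on pairing. The 6 ratios kept direction and call when 1 library was left out (Mb/Hbb-b1 -3.18 to -2.97, Hba-a2/Hbb-b1 1.33 to 1.66, Alas2/Hbb-b1 3.93 to 4.22, Vegfa/Vegfb -1.81 to -1.55, Hif1a/Epas1 1.97 to 2.18, Egln1/Hif1a -2.19 to -1.88). Correlations that did not pass changed sign: Vegfa with Vegfb to 0.154 (nuclear CPM), 0.177 (TMM) and 0.996 (2 farthest libraries left out), Hif1a with Egln1 to 0.074 (nuclear CPM) and 0.425 (2 left out), and Hif1a with Epas1 to -0.457 (2 left out). Hbb-b1 with Alas2 was 0.960 over the 4 libraries left, where it was not tested. The causes were not tested. With 6 to 106 counts of a member in a mitochondria library, the precision of every level there is limited.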
